A study of Homo sapiens with 30 samples.

Results

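The response of Loucy to decitabine was measured in 6 RNA libraries of 30 in the series, chosen by the cell line named in their labels. Loucy is an established human T-cell acute lymphoblastic leukaemia (T-ALL) line, widely used as a model of the early T-cell precursor form of the disease. Of its 6 libraries, 3 came from cells given 1 µM decitabine for 48 hours and 3 from cells given the solvent DMSO for the same time. The other 24 libraries came from the lines MOLT-16, PEER, PER-117 and TALL-1, with the same 2 treatments and 3 libraries in each group. The labels give replicate numbers but do not say whether replicates were separate cultures, so p-values here measure the spread between these libraries, which may be technical. All groups share the same culture medium, and each group is a single cell line with no genetic change named in the labels.

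Decitabine (5-aza-2′-deoxycytidine, DAC) is a cytidine analogue that is phosphorylated inside the cell by deoxycytidine kinase and built into DNA during replication. There it traps DNA methyltransferases, so that daughter strands of dividing cells lose methylation at CG dinucleotides. Promoters rich in CG that are methylated and silent in leukaemia cells, germline genes and endogenous retroviral sequences are well known for being switched on by the drug, as are interferon-stimulated genes in many tumour lines.

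Untreated Loucy carried RNA of the T lineage and of early precursors. CD3D, a subunit of the T-cell receptor complex, stood at 251, 258 and 288 counts per M (mega) of gene reads, or CPM, in the 3 DMSO libraries, and the early precursor factors LYL1 and MEF2C at 159, 124, 181 and at 142, 156, 165 CPM. The stem-cell marker CD34 and the kinase receptor KIT, often present in early T-cell precursor leukaemia, were at or near 0 in DMSO (CD34 at 0.0658, 0.642 and 0.341 CPM, KIT at 0, 0.117 and 0 CPM). CD5, usually weak in that form of the disease, had 87.1, 73.7 and 61.9 CPM. CPM values here count 3′ tags, in which a transcript is read near its end whatever its length, and they are not divided by length.

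The Loucy libraries held 10.2 to 13.4 M gene reads with decitabine and 12.7 to 15.4 M with DMSO, against 2.20 to 10.6 M in the libraries of MOLT-16, PEER and TALL-1 and 9.93 to 15.03 M in those of PER-117. Genes with at least 10 reads numbered 14254 to 14942 in the decitabine libraries and 13489 to 13712 in the DMSO libraries of Loucy, so the groups did not overlap (exact permutation test, two-sided p = 0.1, the smallest that 3 against 3 allows). The first principal component of the 6 libraries held 69.4% of the variance and separated the treatments. In the second, with 11.2%, DMSO replicate 3 lay apart from DMSO replicates 1 and 2. The 3 DMSO libraries PEER replicate 2, TALL-1 replicate 3 and MOLT-16 replicate 3 hold transcripts of another line and enter the comparison between lines. For Loucy's own comparison they enter the choice of genes tested (15081 with them, 15741 without), the scaling and the shared estimate of spread. The leading counts that rest on them are given with and without them.

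Decitabine raised far more genes than it lowered. Of 15081 genes tested, 1595 (10.6%) were higher and 623 (4.13%) lower in decitabine than in DMSO at an adjusted p of at most 0.05 (edgeR's quasi-likelihood test on all 30 libraries, Benjamini-Hochberg adjustment over all genes). The 3 libraries of one treatment lay entirely above those of the other for 1577 of the 1595 rises and 608 of the 623 falls. Fitted changes were also larger for rises: 1262 of them (79.1%) but only 48 falls (7.70%) reached a fitted change of 2-fold. These shares are not matched for level, as rises had a DMSO median of 1.02 CPM and falls 88.2 CPM. The 48 became 81 in the fit of Loucy alone, 73 without DAC replicate 2, 28 without DAC replicate 1 and 28 with totals-only scaling. Without the 3 mixed DMSO libraries of the other lines, 2282 of 15741 genes tested were higher and 1259 lower. In a fit of the 6 Loucy libraries alone 2162 of 14365 were higher and 1344 lower. The count of falls is the less firm of these numbers. It was 287 with DAC replicate 1 left out, 315 with DAC replicate 3 and 399 with DMSO replicate 3 left out, and 274 when libraries were scaled by their totals only, a setting that moved the median log2 change of all genes from 0.03 to 0.14 and left 88.2% of calls as rises, against 71.9%.

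The genes that rose most had almost no reads in DMSO. Errors of log2 changes are approximate standard errors derived from the test statistic. The named rises are the 20 largest among protein-coding genes that reached 5 CPM with decitabine, did not overlap between treatments and were also called in the fit of Loucy alone. GPER1, a G protein-coupled oestrogen receptor (ENSG00000164850.14; GRCh38, chr7:1082208-1093815, plus strand), had no read in any DMSO library and stood at 23.1, 21.2 and 33.9 CPM with decitabine. SDC4, the heparan sulphate proteoglycan syndecan 4 (ENSG00000124145.6; chr20:45325288-45348424, minus strand), had no DMSO read either and stood at 7.77, 6.09 and 5.15 CPM with decitabine. Every decitabine library of both genes was above every DMSO library. Against a floor of 3 reads over the DMSO group, GPER1 was at least 398-fold and SDC4 at least 100-fold higher.

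PRSS35, a secreted serine protease-like protein (ENSG00000146250.6; chr6:83512538-83525704, plus strand), had 0.0658, 0 and 0 CPM in DMSO and 13.5, 15.2 and 13.4 CPM with decitabine. That is 1 read against 618, a ratio of 663 with a 95% counting interval of 118 to 2.62e+04. TRH, the precursor of thyrotropin-releasing hormone (ENSG00000170893.3; chr3:129974305-129977938, plus strand), had 0, 0.117 and 0 CPM in DMSO and 23.8, 18.1 and 19.8 CPM with decitabine, a ratio of 482 (133 to 3.99e+03). The treatments lay far apart for both genes. The fitted log2 change depended on the DMSO library that held the few reads: it went from 8.56 to 9.76 for PRSS35 without DMSO replicate 1 and from 8.47 to 10.29 for TRH without DMSO replicate 2.

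The promoter windows of these 4 genes, and of HIST1H1D, the gene that fell most, show how differently CG-rich the starts of responding genes are. Each window runs from 250 bases before to 50 bases after a RefSeq transcript start (GRCh38.p14), is written 5′ to 3′ on the gene's strand, and has its CG dinucleotides in capitals.
GPER1 start 1, chr7:1086868-1087167, plus strand, 22 CG: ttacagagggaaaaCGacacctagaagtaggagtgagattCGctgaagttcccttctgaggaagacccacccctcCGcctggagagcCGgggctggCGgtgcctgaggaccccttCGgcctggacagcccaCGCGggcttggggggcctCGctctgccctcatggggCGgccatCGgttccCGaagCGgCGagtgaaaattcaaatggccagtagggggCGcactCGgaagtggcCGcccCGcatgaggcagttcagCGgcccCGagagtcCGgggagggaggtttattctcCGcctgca
GPER1 start 2, chr7:1087863-1088162, plus strand, 6 CG: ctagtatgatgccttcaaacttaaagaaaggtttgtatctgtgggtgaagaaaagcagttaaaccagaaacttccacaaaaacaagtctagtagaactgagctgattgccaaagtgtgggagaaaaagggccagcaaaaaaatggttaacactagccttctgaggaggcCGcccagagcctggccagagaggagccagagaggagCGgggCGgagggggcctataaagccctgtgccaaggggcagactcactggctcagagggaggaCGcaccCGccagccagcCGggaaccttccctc
SDC4, chr20:45348375-45348674, minus strand, 33 CG: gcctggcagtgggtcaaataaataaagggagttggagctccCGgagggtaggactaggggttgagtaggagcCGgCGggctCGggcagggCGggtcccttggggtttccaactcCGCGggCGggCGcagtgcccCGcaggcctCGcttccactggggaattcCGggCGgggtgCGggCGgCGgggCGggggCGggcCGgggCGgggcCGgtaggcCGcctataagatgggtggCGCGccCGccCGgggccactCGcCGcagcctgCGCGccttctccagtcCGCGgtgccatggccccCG
PRSS35, chr6:83512284-83512583, plus strand, 19 CG: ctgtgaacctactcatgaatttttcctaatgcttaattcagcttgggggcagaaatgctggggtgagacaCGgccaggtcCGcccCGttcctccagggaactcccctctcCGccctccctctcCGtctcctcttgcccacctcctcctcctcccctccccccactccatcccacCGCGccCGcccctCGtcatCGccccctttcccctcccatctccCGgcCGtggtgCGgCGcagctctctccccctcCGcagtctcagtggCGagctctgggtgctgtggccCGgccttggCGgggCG
TRH, chr3:129974470-129974769, plus strand, 37 CG: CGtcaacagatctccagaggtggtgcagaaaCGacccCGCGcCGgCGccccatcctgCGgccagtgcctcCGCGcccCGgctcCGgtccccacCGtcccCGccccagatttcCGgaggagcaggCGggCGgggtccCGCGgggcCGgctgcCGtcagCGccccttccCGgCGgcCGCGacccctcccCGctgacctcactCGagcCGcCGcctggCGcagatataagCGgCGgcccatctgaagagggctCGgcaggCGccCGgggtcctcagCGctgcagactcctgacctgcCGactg
HIST1H1D, chr6:26234938-26235237, minus strand, 11 CG: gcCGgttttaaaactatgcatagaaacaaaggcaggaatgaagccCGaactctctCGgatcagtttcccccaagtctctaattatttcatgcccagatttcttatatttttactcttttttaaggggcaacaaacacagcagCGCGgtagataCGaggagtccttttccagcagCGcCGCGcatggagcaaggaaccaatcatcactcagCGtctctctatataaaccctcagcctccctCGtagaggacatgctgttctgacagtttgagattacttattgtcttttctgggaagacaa
The windows of SDC4 and TRH held the most CG dinucleotides, 33 and 37. The second start of GPER1 held only 6. No methylation values were analysed here, and a CG dinucleotide in a window does not show that it was methylated.

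TIMP3, an inhibitor of matrix metalloproteinases, rose from 0.132, 0.584 and 0.273 CPM to 31.2, 35.0 and 30.8 CPM (log2 change 6.51 ± 0.56, adjusted p = 3.38e-09; 7.21 without DMSO replicate 2). CYB561, a transmembrane electron carrier, rose from 0.0658, 0.175 and 0 CPM to 17.0, 19.5 and 18.4 CPM (log2 change 7.51 ± 0.78, adjusted p = 7.2e-08; 8.51 without DMSO replicate 2). In both genes the lowest decitabine library was far above the highest DMSO library. The other named rises include ELN (elastin), the potassium channel KCNK17, the small GTPase RAB17, the Hedgehog transcription factor GLI2, PRAME, a melanoma antigen of the cancer-testis group, the vessel growth factor ANGPT2, the thrombin receptor F2RL3 and CETP, the plasma cholesteryl ester transfer protein. None of the 20 exceeded 1 CPM in a DMSO library. For 10 of the others the fitted size moved with a DMSO library left out: the log2 change became 8.70 for LRRN3 and 8.93 for KCNK17 without DMSO replicates 3 and 2, 7.77 for RAB17 and 6.78 for ANGPT2 without DMSO replicate 2, 8.36 for GLI2, 7.03 for CRYBA4 and 8.51 for CSRNP3 without DMSO replicate 1, 7.17 for PRAME and 8.47 for CCL3L1 without DMSO replicate 3, and 5.47 or 6.85 for DEPP1 without DMSO replicate 2 or 3. CCL3L1 is a near-identical copy of CCL3, and reads of the pair cannot be assigned with certainty.

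**Figure D1:**
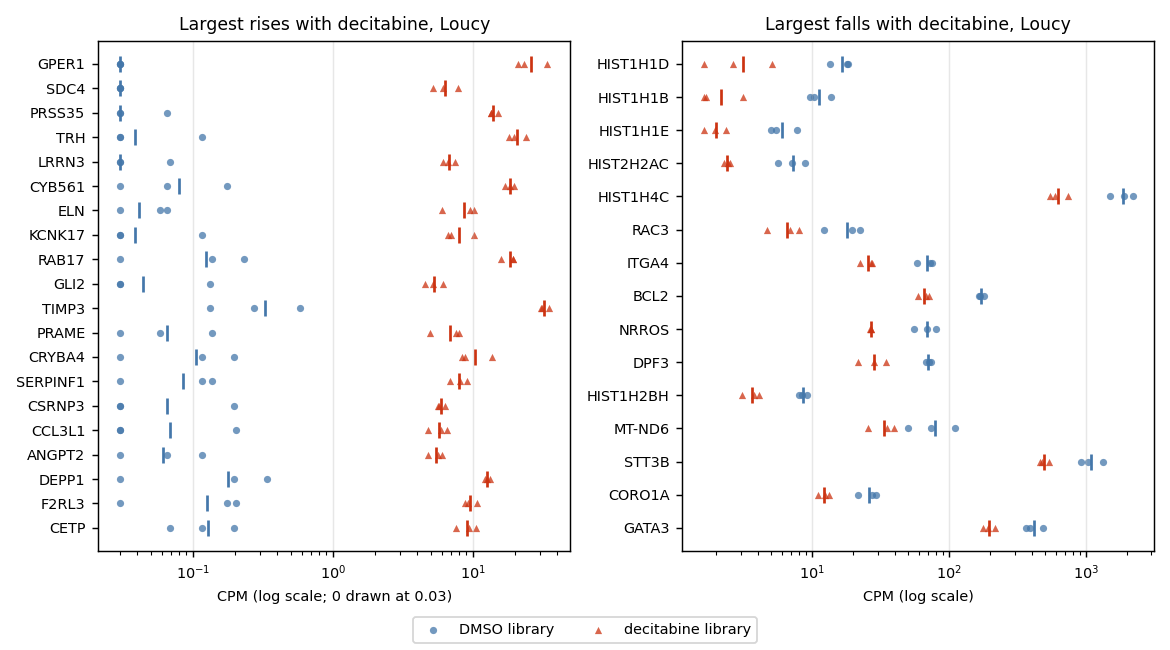
CPM per library on a log scale for the 20 named rises (left) and 15 named falls (right) in Loucy; circles are DMSO libraries, triangles decitabine libraries, vertical bars the means of 3 libraries, and values under 0.03 CPM are drawn at 0.03. GPER1 and SDC4 had no DMSO read, whereas BCL2 and GATA3 fell from well-expressed levels, and no gene shown overlaps between treatments.

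Over all rises the median level went from 1.02 CPM in DMSO to 4.34 CPM with decitabine, and 794 rises (49.8%) had a DMSO mean under 1 CPM. No DMSO read was seen for 157 rises and at most 3 for 317. The fitted fold of such genes depends on a small added count and is no measure of size. Of the 317, 103 were under 1 CPM in every other untreated line as well, and 94 stood at 5 CPM or more in at least 1 other untreated line. The falls sat at the other end, with medians of 88.2 CPM in DMSO and 60.6 CPM with decitabine, and 591 of 623 (94.9%) had a DMSO mean of 10 CPM or more.

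Binned by the sum of DMSO reads, the share of genes called higher was 27.5% of 570 genes with no read, 36.3% of 441 with 1 to 3 reads and 36.2% of 1025 with 4 to 30 reads. It was 15.6% of 3489 genes with 31 to 300 reads, 5.15% of 6414 with more than 300 and up to 3000, and 1.08% of 3142 above 3000. The share called lower ran the other way, from 0.602% of the genes with 31 to 300 reads to 12.3% of those above 3000. A gene with no DMSO read enters the test only if decitabine or another line gives it reads, and few reads allow no fall to be called, so the lowest bins hold no equal chance of both directions.

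Histone genes, BCL2 and GATA3 were among the 15 named falls. HIST1H1D, which encodes a linker histone of the H1 family, fell from 13.5, 18.1 and 18.2 CPM to 1.62, 5.12 and 2.66 CPM (log2 change -2.38 ± 0.33, adjusted p = 7.53e-06). BCL2, the apoptosis inhibitor on which early T-cell precursors are known to depend, fell from 180, 167 and 164 CPM to 71.4, 67.2 and 59.6 CPM (log2 change -1.37 ± 0.13, adjusted p = 2.11e-08). For both, all decitabine libraries were below all DMSO libraries. ITGA4, the α4 integrin subunit, fell from 74.6, 58.6 and 72.0 CPM to 22.3, 27.2 and 27.0 CPM (log2 change -1.42 ± 0.23, adjusted p = 6.17e-05). RAC3, a small GTPase, NRROS, DPF3, a subunit of BAF chromatin remodelling complexes, the mitochondrial gene MT-ND6, STT3B, a catalytic subunit of oligosaccharyltransferase, and CORO1A, an actin-binding protein of leukocytes, were the other named falls besides GATA3 and histone genes, with log2 changes of -1.45, -1.36, -1.32, -1.22, -1.15 and -1.09.

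Of the 15 named falls, 6 were histone cluster genes, so all replication-dependent cluster histone genes were examined after these values had been seen. Of 46 measured, 12 were lower and 5 higher. HIST1H4C, the most strongly read of them, fell from 1881, 2196 and 1499 CPM to 548, 740 and 589 CPM (log2 change -1.57 ± 0.36, adjusted p = 0.00242). The 5 that rose were HIST1H2AC, HIST1H2BJ, HIST1H3E, HIST2H2BE and HIST1H2BN, with log2 changes of 1.86, 1.60, 1.41, 1.03 and 1.00. The number higher was 8 in the fit of Loucy alone. Without DAC replicate 1 it was 3, HIST2H2BE (0.92) being among those lost, and the number lower ranged from 9 to 12 over the libraries left out. In the other lines, 33 cluster histone genes were higher and none lower in TALL-1, 7 higher and 1 lower in PER-117, 5 higher and none lower in PEER, and none higher and 1 lower in MOLT-16. Without the mixed libraries, with 52 measured, these counts were 39 higher and 1 lower in TALL-1, 9 and 1 in PER-117, 6 and 1 in PEER and 0 and 5 in MOLT-16. In 12 of the 46 genes the Loucy response was lower than the mean response of the other lines, and in 16 of the 52 without the mixed libraries. Most mRNAs of this class carry no poly(A) tail, and these libraries were primed on poly(A), so only their polyadenylated form was counted. Copies with near-identical coding sequences can also share reads.

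Gene lists drawn up by function separated into 3 kinds: immune effector, myeloid and germline lists in which many members rose and almost none fell, proliferation lists in which members only fell, and lists of T-lineage regulators that moved both ways. They are described by counts, beside 10.6% of all genes higher and 4.13% lower. These shares are not matched for level, on which calls depended. Of genes with 1 to 3 DMSO reads 36.3% were called higher, and of those above 3000 reads 12.3% were called lower. Lists of little-read or well-read genes can therefore differ from the all-gene shares by level alone, and this was not tested.

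**Figure D2:**
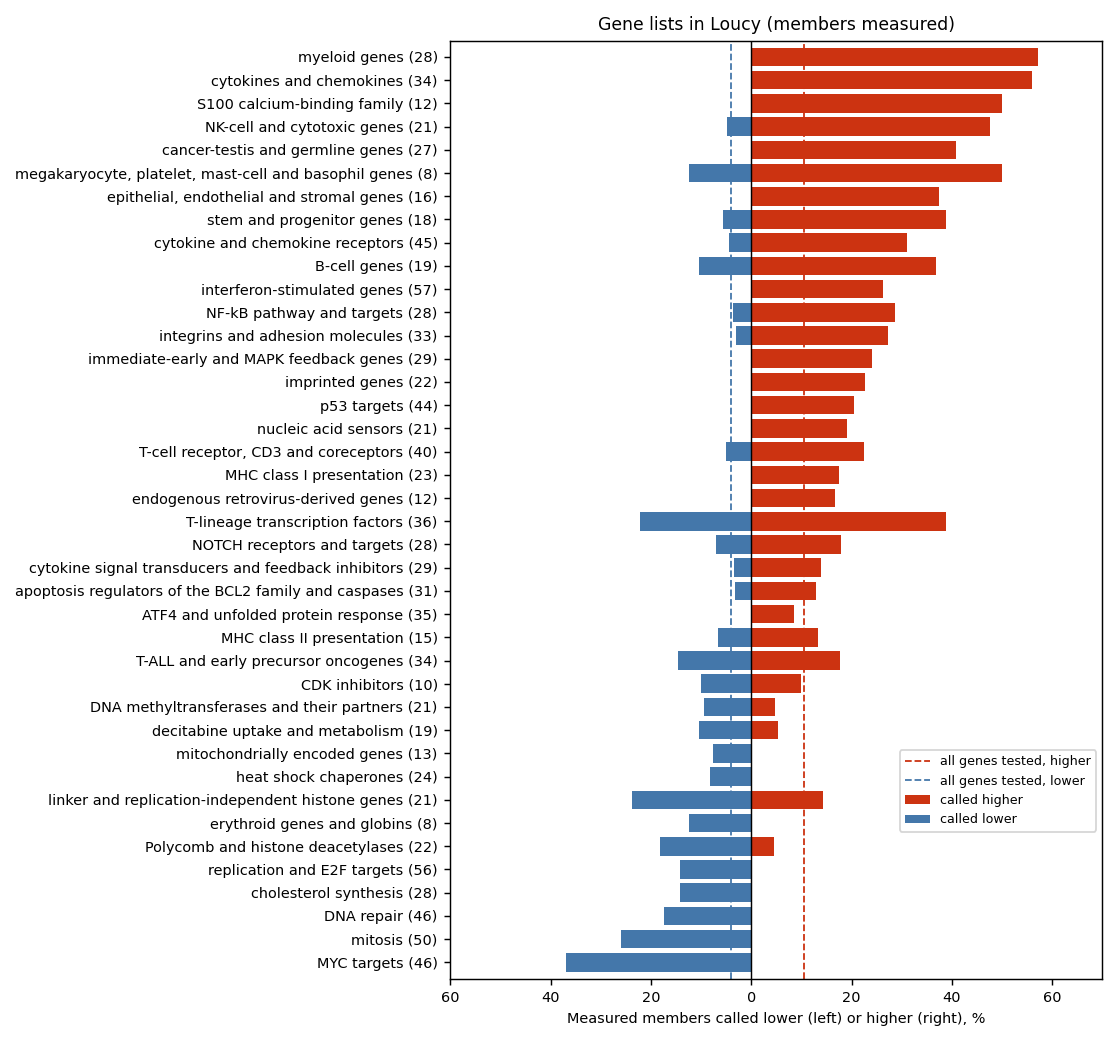
Percent of the measured members of each gene list called higher (right) or lower (left) in Loucy with decitabine, with the number measured in parentheses; dashed lines mark 10.6% and 4.13%, the shares over all genes tested. Myeloid (16 of 28) and cytokine (19 of 34) lists lie at the right, MYC targets (17 of 46) at the left, and T-lineage transcription factors to both sides.

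Among ligands of the immune system, 19 of 34 measured cytokines and chemokines rose and none fell. LTB, lymphotoxin β, was the highest of them and rose from 53.1, 49.8 and 39.0 CPM to 143, 155 and 168 CPM (log2 change 1.71 ± 0.21, adjusted p = 7.42e-07). TNF rose from 0.526, 0.350 and 0.0683 CPM to 5.54, 4.94 and 4.51 CPM (log2 change 3.91 ± 0.64, adjusted p = 5.69e-05). The inhibitory cytokine IL10 rose from 0.329, 0.175 and 0.137 CPM to 3.51, 4.34 and 4.11 CPM. In all 3 genes every decitabine library was above every DMSO library. The chemokines CCL5, CCL3 and CCL4, which attract T cells and monocytes, rose with log2 changes of 4.52, 2.78 and 3.60. IL15, which sustains NK and memory T cells, rose by a log2 change of 2.24, and CXCL8 stood at a ratio of 62.2 against its 1 DMSO read (10.7 to 2.50e+03; log2 change 6.34 without DMSO replicate 2). The count was 17 or 18 with any one Loucy library left out and 24 without the 3 mixed libraries of other lines. Over the 17 members at 1 CPM or more in DMSO, the median log2 change was 0.73, against -0.03 for all 12603 genes at that level.

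Of 45 measured cytokine and chemokine receptors, 14 rose and 2 fell. The falls were 1 without DMSO replicate 1, DMSO replicate 2, DAC replicate 1 or DAC replicate 2. TNFRSF1B, a TNF receptor, rose from 33.3, 33.2 and 32.6 CPM to 97.3, 84.3 and 103 CPM (log2 change 1.52 ± 0.32, adjusted p = 0.00116), and IL21R from 4.34, 3.27 and 5.26 CPM to 18.6, 20.2 and 21.8 CPM (log2 change 2.24 ± 0.28, adjusted p = 1.71e-06). IL6R and the costimulatory receptor TNFRSF4 rose by log2 changes of 2.15 and 2.69. CXCR4, the receptor that holds lymphoid precursors in marrow, fell from 129, 138 and 195 CPM to 91.3, 95.3 and 111 CPM (log2 change -0.64 ± 0.14, adjusted p = 0.00135). These groups stood apart in every case. Of 28 NF-kB pathway genes and targets 8 rose, but only 4 without DMSO replicate 2, 4 without DMSO replicate 3, 5 without DAC replicate 1 and 3 without DAC replicate 3. RELB, a subunit of the non-canonical pathway, kept its rise in every case (log2 change 1.63). Of 29 immediate-early genes 7 rose, and 3 or 4 without DMSO replicate 3, DAC replicate 1 or DAC replicate 2, against 12 in the fit of Loucy alone and 11 without the 3 mixed libraries.

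Of 28 measured myeloid genes 16 rose and none fell, and 11 to 13 rose with 1 Loucy library left out. MPO, the granule peroxidase of neutrophil precursors, rose from 1.05, 0.934 and 0.956 CPM to 18.2, 14.2 and 15.8 CPM (log2 change 4.01 ± 0.45, adjusted p = 7.95e-07). CD33, a surface lectin of myeloid cells, rose from 6.25, 6.54 and 6.49 CPM to 19.1, 18.6 and 21.3 CPM (log2 change 1.61 ± 0.28, adjusted p = 0.000192). CEBPA, a transcription factor of granulocyte development, had no DMSO read and reached 1.22, 1.08 and 0.805 CPM, at least 16.4-fold higher. Each of these genes separated the treatments completely. TYROBP, the adaptor shared by NK and myeloid receptors, rose from 0, 0 and 0.341 CPM to 3.51, 2.83 and 4.59 CPM (log2 change 4.89, 4.30 without DMSO replicate 2 and 7.81 without DMSO replicate 3).

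Of 21 NK-cell and cytotoxic genes, 10 rose and 1 fell (none without DAC replicate 3). GZMA, a granzyme, rose from 4.47, 5.14 and 6.08 CPM to 46.5, 40.6 and 52.6 CPM (log2 change 3.15 ± 0.32, adjusted p = 3.36e-08), with the treatments well apart. Of 12 S100 calcium-binding genes 6 rose and none fell, with S100B at a log2 change of 2.62 and S100A13 at 1.43. Of 19 B-cell genes 7 rose and 2 fell, with 1 fall without DMSO replicate 1 and none without DMSO replicate 2, DAC replicate 2 or DAC replicate 3. SPIB, an ETS factor, and PAX5, the B-lineage determinant, rose by log2 changes of 4.15 and 2.61, both to less than 5 CPM.

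Summed markers of myeloid, NK, B, and epithelial and stromal cells were higher with decitabine, whereas the erythroid sums overlapped between treatments. Of the markers tested singly, 2 of 4 myeloid, 1 of 2 NK, 2 of 3 B-cell and 1 of 3 epithelial and stromal ones were called higher. The summed level of 8 myeloid markers was 11.7 to 14.6 CPM in DMSO and 44.8 to 45.6 CPM with decitabine, with ELANE and S100A8 at 0 in both. The sum of 5 NK markers was 0.367 to 0.715 and 2.07 to 2.90 CPM, that of 4 B-cell markers 43.9 to 64.4 and 71.0 to 78.7 CPM, that of 5 epithelial and stromal markers 0.147 to 0.315 and 1.48 to 2.69 CPM, with EPCAM at 0, and that of 4 erythroid markers 0.0787 to 0.390 and 0.295 to 0.673 CPM. These sums are per M of unscaled gene reads, so they cannot be set beside the scaled CPM given elsewhere. CD79A, which gave most of the B-cell sum, did not pass edgeR's test (log2 change 0.21, adjusted p = 0.729). The part of other cells in the rises of these markers and lists was not tested. In bulk RNA, more cells of a type and more RNA per cell cannot be told apart.

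Interferon-stimulated genes rose in part. Of 57 measured, 15 rose and none fell, and without the 3 mixed libraries 24 rose and 3 fell, the same counts as in the fit of Loucy alone. IFIT3, an antiviral effector, rose from 0.0658, 0.175 and 0.137 CPM to 2.23, 2.17 and 3.86 CPM (log2 change 4.26 ± 0.49, adjusted p = 4.13e-07). IFI44L rose from 0.461, 0.234 and 0.410 CPM to 4.66, 2.77 and 4.59 CPM (log2 change 3.40 ± 0.39, adjusted p = 3.87e-07). No library of one treatment overlapped the other in either gene. IRF9, a transcription factor of interferon signalling, rose by a log2 change of 2.47 and OAS1, a sensor of double-stranded RNA, by 2.57. Among class I antigen presentation genes 4 of 23 rose, with 9 in the fit of Loucy alone, 8 without the mixed libraries and 7 with the replicate block. HLA-B, a classical class I gene, rose from 590, 626 and 690 CPM to 1158, 1076 and 1152 CPM (log2 change 0.83 ± 0.19, adjusted p = 0.00287). Of 12 genes derived from endogenous retroviruses 2 rose (1 in the fit of Loucy alone and without DMSO replicate 2, DMSO replicate 3 or DAC replicate 1), ERVH48-1 by a log2 change of 3.18 and ERVFRD-1 from 1 read to 27 (ratio 20.4, 95% counting interval 3.24 to 846). Their decitabine means were 1.09 and 0.451 CPM, and the change of ERVH48-1 was 3.80 without DMSO replicate 1 and 2.59 without DMSO replicate 2.

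Transcription factors of the T lineage moved in both directions: of 36 measured, 14 rose and 8 fell, and 9 rose without DMSO replicate 1. The 14 that rose had DMSO means of at most 35 CPM, and the 8 that fell had DMSO means of at least 109 CPM. Over all genes, too, rises started lower than falls, with DMSO medians of 1.02 and 88.2 CPM. TOX2, an HMG-box factor, rose from 4.34, 5.78 and 1.16 CPM to 229, 169 and 160 CPM (log2 change 5.61 ± 0.61, adjusted p = 1.2e-07). ID3, an inhibitor of E proteins, rose from 36.2, 39.9 and 27.9 CPM to 148, 117 and 112 CPM (log2 change 1.86 ± 0.32, adjusted p = 0.000144), and MAF rose by a log2 change of 2.01. GATA3, which commits precursors to the T lineage, fell from 366, 389 and 487 CPM to 177, 191 and 216 CPM (log2 change -1.09 ± 0.16, adjusted p = 1.2e-05). Every one of these genes separated the treatments.

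LEF1, a nuclear partner of β-catenin, fell from 383, 419 and 399 CPM to 216, 215 and 190 CPM (log2 change -0.95 ± 0.18, adjusted p = 0.000256). MYB, a factor of T-ALL enhancers, fell from 568, 483 and 631 CPM to 308, 277 and 290 CPM (log2 change -0.94 ± 0.12, adjusted p = 1.91e-06). Decitabine libraries were all below DMSO libraries in both. ETS1, TOX and RUNX1 fell by smaller log2 changes of -0.58, -0.57 and -0.55. TCF7, the partner of LEF1 in early T-cell development, was low in DMSO at 1.18, 3.10 and 0.683 CPM and stood at 5.27, 4.28 and 3.54 CPM with decitabine (log2 change 1.36, adjusted p = 0.0056). That call was lost without DMSO replicate 3 (1.00), and the change was 2.20 without DMSO replicate 2. The fall of BCL11B, a T-lineage commitment factor (log2 change -0.62), was lost without DAC replicate 3 (-0.54).

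**Figure D3:**
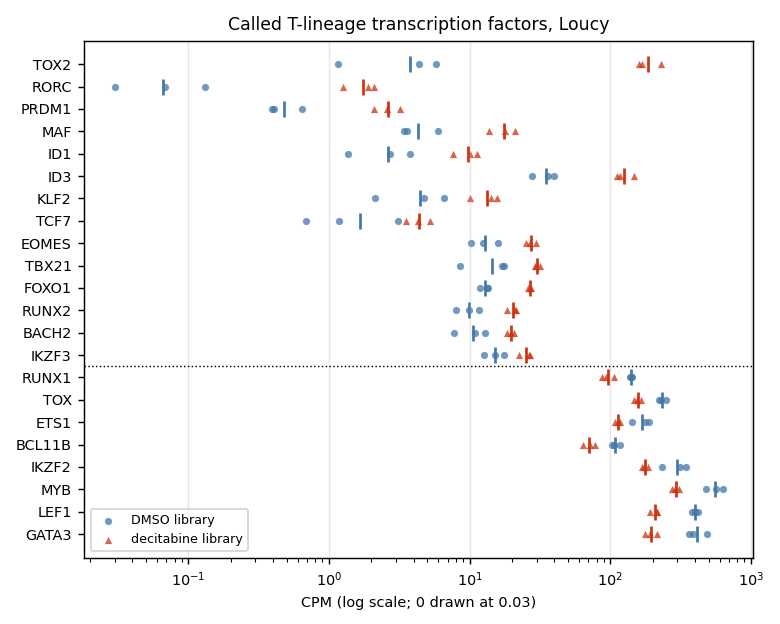
CPM per library on a log scale for the 22 T-lineage transcription factors called in Loucy, ordered by log2 change; circles are DMSO libraries, triangles decitabine libraries, vertical bars means of 3 libraries, and the dotted line divides the 14 that rose from the 8 that fell. Rising factors start at DMSO means of at most 35 CPM and falling ones at 109 CPM or more, with TOX2 moving farthest. Rises over all genes also started lower than falls.

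Of 18 stem and progenitor genes 7 rose and 1 fell, with 2 lower in the fit of Loucy alone or without the mixed libraries. CD34 rose to 5.88, 5.06 and 7.08 CPM from the DMSO values given above (log2 change 4.0 ± 0.58, adjusted p = 1.07e-05; 4.78 without DMSO replicate 2). MECOM, the EVI1 locus, rose from 0.197, 0.175 and 0.0683 CPM to 4.05, 4.34 and 2.58 CPM (log2 change 4.49 ± 0.55, adjusted p = 2.64e-06). EGFL7, a secreted factor of endothelial and stem cells, had no DMSO read and reached 3.45, 3.92 and 3.70 CPM, at least 57.9-fold higher. GATA2 rose from 40.3, 44.9 and 35.6 CPM to 109, 115 and 93.5 CPM (log2 change 1.39 ± 0.27, adjusted p = 0.000674), and SOX4 fell from 1361, 1294 and 1400 CPM to 611, 853 and 904 CPM (log2 change -0.78 ± 0.16, adjusted p = 0.000799). The treatments were apart in all 5 genes. PECAM1, an adhesion molecule of endothelium and leukocytes, rose from 0.197, 0.234 and 0.205 CPM to 8.99, 9.10 and 10.3 CPM (log2 change 5.37 ± 0.37, adjusted p = 7.89e-11).

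Of 34 oncogenes of T-ALL and early precursors, 6 rose and 5 fell, with 8 lower in the fit of Loucy alone. TAL1, a basic helix-loop-helix driver of other T-ALL subtypes, went from 1 read to 3.99, 3.38 and 2.50 CPM, a ratio of 157 (27.7 to 6.22e+03; log2 change 6.48, and 7.67 without DMSO replicate 1). NKX2-1 had no DMSO read and reached 2.50, 1.69 and 2.66 CPM, at least 35-fold higher. WT1 rose by a log2 change of 2.23. The 5 that fell were BCL2, MYB, RUNX1, SET and MYCN, which went from 90.1, 93.2 and 81.4 CPM to 49.6, 51.3 and 40.3 CPM (log2 change -0.90 ± 0.21, adjusted p = 0.0039). MYC itself was nearly unread, with DMSO and decitabine means of 0.127 and 0.0469 CPM. The rise of LMO2 (log2 change 0.94) was lost without DMSO replicate 3 (0.78).

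Among NOTCH receptors and targets 5 of 28 rose and 2 fell. No fall was called with RLE or totals-only scaling, with no filter, or without DMSO replicate 1, DMSO replicate 3, DAC replicate 1 or DAC replicate 3, and 1 was without DAC replicate 2. The ligands JAG1, with no DMSO read and at least 19.3-fold higher, JAG2 (log2 change 2.59) and DLL3 (1.41) were among the rises, as was the target HEY1 (2.25). Of 40 T-cell receptor, CD3 and coreceptor genes 9 rose and 2 fell (7 in the fit of Loucy alone, 6 with no filter, 5 without the 3 mixed libraries or with the replicate block, 1 with RLE scaling or without DMSO replicate 2, DAC replicate 1 or DAC replicate 2, and none with totals-only scaling or without DMSO replicate 1 or DAC replicate 3). The coreceptor CD4 rose from 0, 0.117 and 0.137 CPM to 1.01, 1.39 and 1.85 CPM, and CD2 from 0.724, 0.642 and 0.614 CPM to 5.14, 4.64 and 3.62 CPM (log2 changes 3.82 and 2.74). SLAMF1, a costimulatory receptor, had no DMSO read and was at least 37.2-fold higher. All of these separated the treatments.

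Cancer-testis and germline genes rose in 11 of 27 measured and fell in none. PAGE5 rose from 0.395, 0.350 and 0.546 CPM to 15.6, 14.7 and 20.7 CPM (log2 change 5.26 ± 0.43, adjusted p = 1.25e-09). PRAME stood at 4.93, 7.53 and 7.97 CPM with decitabine after 0, 0.0584 and 0.137 CPM in DMSO. PIWIL2, of the germline small RNA pathway, and SOHLH2, a germ-cell transcription factor, rose by log2 changes of 3.73 and 3.09. PAGE5, PRAME, PIWIL2 and SOHLH2 showed no overlap between treatments. Among imprinted genes 5 of 22 rose (8 with voom) and none fell. The cell-cycle inhibitor CDKN1C rose from 0.658, 0.350 and 0.478 CPM to 16.1, 14.8 and 15.2 CPM (log2 change 4.92 ± 0.47, adjusted p = 1.62e-08) and PHLDA2 by a log2 change of 5.28.

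Of 21 DNA methyltransferases and partners 1 rose and 2 fell, as did 1 and 2 of 19 genes of decitabine uptake and metabolism. Falls of the first list numbered 4 in the fit of Loucy alone and 1 with RLE or totals-only scaling, no filter, the replicate block, or any one Loucy library except DMSO replicate 2 left out. Falls of the second numbered 8 in the fit of Loucy alone, 4 without the mixed libraries, with no filter or with the replicate block, 0 with totals-only scaling and 1 with any one Loucy library except DMSO replicate 1 left out. DNMT3B, a de novo DNA methyltransferase, fell from 286, 261 and 233 CPM to 135, 129 and 109 CPM (log2 change -1.06 ± 0.18, adjusted p = 0.000124), with all decitabine libraries lower. DNMT1, the maintenance methyltransferase, had 715, 586 and 542 CPM in DMSO and 517, 471 and 495 CPM with decitabine (log2 change -0.31 ± 0.30, adjusted p = 0.553). UHRF1, its recruiting partner, and DNMT3A did not pass the test (log2 changes -0.39 and -0.25, adjusted p = 0.383 and 0.242). The call for TET1, which oxidises methylcytosine (log2 change -0.57, adjusted p = 0.0381), was lost with DMSO replicate 1 (-0.48), DMSO replicate 3 (-0.51), DAC replicate 1 (-0.63), DAC replicate 2 (-0.58) or DAC replicate 3 (-0.48) left out. DCK, the kinase that activates decitabine, and the nucleoside transporter SLC29A1 had log2 changes of -0.47 and -0.01 (adjusted p = 0.197 and 0.998). ABCB1, the multidrug efflux pump, had no DMSO read and 0.946, 0.784 and 1.13 CPM with decitabine, at least 14.7-fold higher.

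Of 22 Polycomb and histone deacetylase genes 1 rose and 4 fell, with 2 lower without DMSO replicate 2, DAC replicate 1 or DAC replicate 3 and 2 with totals-only scaling or no filter. The one that rose was EZH2, the histone H3 lysine methyltransferase of Polycomb complex PRC2. It was almost unread in untreated Loucy, at 0.329, 0.175 and 0.205 CPM, and stood at 2.16, 1.33 and 1.29 CPM with decitabine (log2 change 2.69 ± 0.36, adjusted p = 3.15e-06). In untreated MOLT-16, PEER, PER-117 and TALL-1 its mean was 76.9, 52.2, 124 and 98 CPM, with log2 changes of -0.02, -0.15, 0.09 and -0.27, so the level reached in treated Loucy remained far below that of any other line. HDAC2 and PHF19, an accessory subunit of PRC2, fell by log2 changes of -0.62 and -0.65.

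Growth genes fell, by small amounts, and none of their lists had a member that rose. Of 46 MYC targets, mostly ribosome assembly factors, 17 were lower, with a median log2 change of -0.40 over all 46. LYAR, a nucleolar protein, fell from 140, 156 and 168 CPM to 61.8, 88.4 and 82.1 CPM (log2 change -1.0 ± 0.17, adjusted p = 8.11e-05), and HSPD1, MRTO4 and DKC1 by log2 changes of -0.64, -0.68 and -0.47. Of 50 mitosis genes 13 were lower (median -0.35), led by the kinetochore proteins CENPE and CENPF (-1.06 and -0.91) and including MKI67 (-0.66). Of 56 replication genes and E2F targets 8 were lower (median -0.23), as were 8 of 46 DNA repair genes (median -0.29), among them MGMT, which removes alkyl groups from guanine (-0.86). All genes together had a median of 0.03.

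The counts of these 4 lists depended on the setting. Without DAC replicate 1 they were 6, 7, 4 and 5 in the order MYC targets, mitosis, replication and repair, and without the 3 mixed libraries 26, 21, 14 and 16. Library totals alone gave 8, 5, 3 and 3, and Loucy's own 6 libraries 28, 26, 17 and 18. With DAC replicate 3 left out, 10 MYC targets, 5 replication genes and 4 repair genes were lower, and with DMSO replicate 1 left out 5 replication and 5 repair genes. RLE scaling gave 5 repair genes.

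Of 44 p53 targets 9 rose, with 14 called without the 3 mixed libraries and 17 in the fit of Loucy alone. They included the antiproliferative factors BTG1 (64 to 88 CPM in DMSO, 183 to 192 CPM with decitabine, log2 change 1.30) and BTG2 (1.27) and the checkpoint protein SFN (4.72). CDKN1A, the p21 gene and a standard readout of p53, had 11.2, 10.6 and 14.2 CPM in DMSO and 21.7, 22.1 and 20.4 CPM with decitabine. With all 30 libraries it did not pass the test (log2 change 0.84 ± 0.31, adjusted p = 0.0708), although its Loucy libraries did not overlap. Without the 3 mixed libraries it passed edgeR's test as higher (log2 change 0.83, adjusted p = 0.0022). Its response was then lower than the mean of the other lines (difference -1.80, adjusted p = 0.00055), which was not called with all libraries (-1.11, adjusted p = 0.143). Among apoptosis regulators 4 of 31 rose and 1, BCL2, fell, with 6 higher and 6 lower in the fit of Loucy alone and 4 lower without the mixed libraries. The BH3-only protein BMF, an antagonist of BCL2, rose from 6.84, 7.48 and 5.39 CPM to 23.8, 19.2 and 20.5 CPM (log2 change 1.68 ± 0.31, adjusted p = 0.000233).

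Compared with the other lines, Loucy had the most rises in the shared fit. PER-117 had 1308 higher and 477 lower genes (8.67% and 3.16%), TALL-1 1017 and 923 (6.74% and 6.12%), PEER 534 and 145 (3.54% and 0.961%) and MOLT-16 331 and 152 (2.19% and 1.01%). The DMSO groups of TALL-1, PEER and MOLT-16 each hold 1 mixed library. Without these 3 libraries the counts were 2282 and 1259 in Loucy, 1877 and 881 in PER-117, 1539 and 1249 in MOLT-16, 1174 and 1022 in TALL-1 and 740 and 141 in PEER, and the count of MOLT-16 moved most. Depth differs between the lines, as given above, and its part in these counts was not tested. Of the 1595 Loucy rises, 871 were called higher in none of the other lines, 447 in 1, 197 in 2, 70 in 3 and 10 in all 4. Without the mixed libraries 1143 of 2282 rises were called in none of the other lines and 33 in all 4. The 10 first counted included GPER1, PAGE5, MCEMP1, NKAPL, RASSF4, RENBP, HBEGF, NXT2 and PIM2. In Loucy the call of PIM2 was lost without DMSO replicate 3 (0.47) or DAC replicate 1 (0.57). The overlap with PER-117 was 464 genes, 29.1% of Loucy's rises and 35.5% of PER-117's. It was 260 with PEER (16.3% and 48.7%), 238 with TALL-1 (14.9% and 23.4%) and 129 with MOLT-16 (8.09% and 39.0%). Of the falls, 139 were shared with TALL-1 (22.3% and 15.1%) and 130 with PER-117 (20.9% and 27.3%), and 378 were called in no other line. Without the mixed libraries the shared rises were 751 with PER-117 (32.9% and 40.0%), 390 with PEER (17.1% and 52.7%), 344 with MOLT-16 (15.1% and 22.4%) and 333 with TALL-1 (14.6% and 28.4%), and the shared falls were 256 with TALL-1 (20.3% and 25.05%), 187 with MOLT-16 (14.9% and 14.97%), 60 with PEER (4.77% and 42.6%) and 303 with PER-117 (24.1% and 34.4%).

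The difference itself was tested as the Loucy response minus the mean response of the other 4 lines: 425 genes had a higher response in Loucy (2.82%) and 248 a lower one (1.64%). Without the 3 mixed libraries these were 561 and 727. Leaving out 1 Loucy library gave 260 to 365 and 85 to 163, the lowest pair being 260 without DMSO replicate 2 and 85 without DAC replicate 1. For higher responses the count was 268 without DAC replicate 1, 269 without DMSO replicate 1 and 280 without DMSO replicate 3. For lower responses it was 106 without DAC replicate 3, 131 without DMSO replicate 1, 140 without DMSO replicate 3, 163 without DAC replicate 2 and 159 without DMSO replicate 2. The test cannot judge many silent genes. Among the 1595 rises 316 had a difference p above 0.98, and in 314 of these a group of another line had no read at all, as for SDC4, PRSS35 and TRH.

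Genes with a higher response in Loucy included TOX2, which had a log2 change of 2.74 in TALL-1 and between -0.61 and 0.41 in the others (difference 4.94, adjusted p = 5.8e-05). PECAM1 differed by 5.15 (adjusted p = 4e-09) and EZH2 by 2.77 (adjusted p = 2.1e-05). These 3 differences were 4.81, 5.03 and 2.74 without the mixed libraries and stayed past the threshold. GPER1 rose in every line, by log2 changes of 3.72 to 6.27 in the others, and its lower bound in Loucy was 398-fold. Of 57 interferon-stimulated genes 13 had a higher response in Loucy and none a lower one, IFIT3 by 3.53 and IFI44L by 3.78. Their counts of rises elsewhere were 8 in PER-117, 5 in TALL-1, 1 in PEER and 1 in MOLT-16, and without the mixed libraries 10, 6, 3 and 7, with 14 of higher and 2 of lower response in Loucy.

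GATA3 fell in Loucy and rose in TALL-1 (log2 change 0.83) and PER-117 (0.63), and in MOLT-16 and PEER it had log2 changes of 0.12 and 0.28 that did not pass the test. Its difference was -1.55 (adjusted p = 3.2e-06). BCL2 also fell in PER-117 (-0.98) and TALL-1 (-0.50), but by less than in Loucy relative to the mean of the other lines (difference -0.95, adjusted p = 0.00021). DNMT3B rose in TALL-1 (0.85), against the fall in Loucy (difference -1.03, adjusted p = 0.0034). Of 50 mitosis genes 10 had a lower response in Loucy, where 13 fell, and in TALL-1 23 rose (20, 21 and 28 without the mixed libraries). The list counts for cytokines were 19 in Loucy against 7, 7, 4 and 1 rises in PER-117, TALL-1, PEER and MOLT-16, with 5 members passing the test of the difference. Without the mixed libraries they were 24 of 38 measured against 7, 9, 7 and 4, with 4 members passing. For p53 targets they were 9 in Loucy against 24 in PER-117, 15 in MOLT-16, 7 in TALL-1 and 4 in PEER, with 4 members of lower and 1 of higher response in Loucy. Without the mixed libraries they were 14 of 47 measured against 29, 21, 8 and 7, with 9 of lower and 2 of higher response. For cancer-testis genes they were 11 against 22 in PER-117, 14 in PEER, 12 in MOLT-16 and 3 in TALL-1, with 1 member of higher response. Without the mixed libraries they were 14 of 28 measured against 22, 12, 15 and 5, with 1 member of higher and 1 of lower response. The difference test cannot judge many genes that are silent in another line. Among the cytokines, CCL4, IL10 and CXCL8 had adjusted p-values above 0.98 in that test. Members of these lists that did not pass are therefore not shown to respond alike in all lines.

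**Figure D4:**
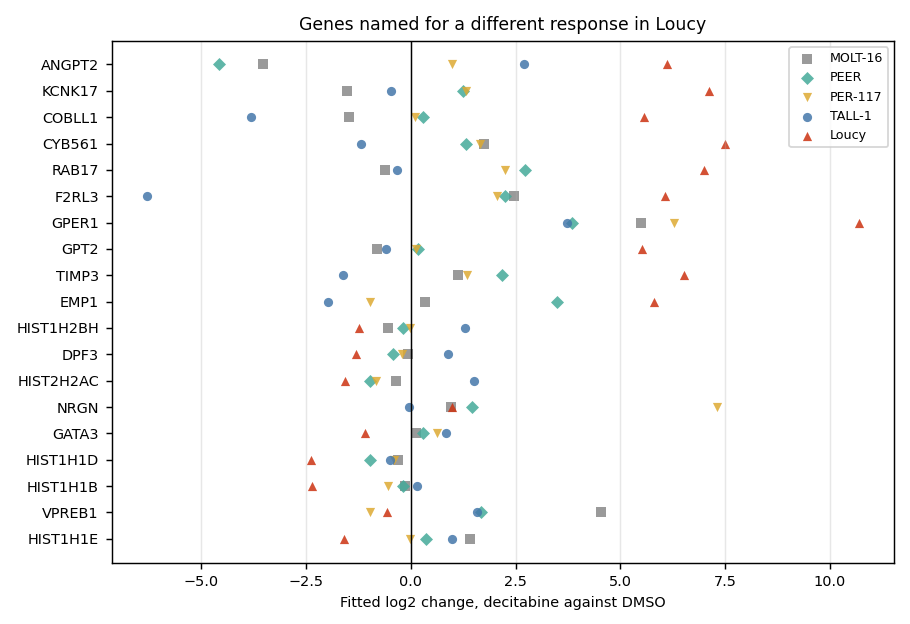
Fitted log2 change, decitabine against DMSO, in 5 lines for 19 genes named for large called differences of Loucy from the other lines' mean. They are protein-coding genes called in Loucy with the treatments apart and at 5 CPM or more in the higher one. Each symbol is the contrast of a line in the shared fit of all 30 libraries. Loucy lies to the right of all other lines for the upper 10 genes and at the left end for the lower 9 except NRGN and VPREB1, with GATA3 and 5 histone genes among them.

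Rises and falls also differed in the sequence at their transcript starts. As promoters were listed for only 77.4% of the higher protein-coding genes, below the 80% needed, that comparison is void, and the first 300 bases of the principal annotated transcript were used after this was seen. The median number of CG dinucleotides there was 18 over the 1346 protein-coding genes that rose, 24 over the 593 that fell and 22 over all 12369 with a sequence. Fewer than 10 CG were present in 28.2% of rises, 10.6% of falls and 15.8% of all genes. Part of this gap goes with level. Among genes with at most 3 DMSO reads the share was 24.3% of rises and 23.6% of genes not called. With a DMSO mean under 1 CPM it was 32.8% and 23.8%, and at 1 CPM or more 24.0% and 13.6%. By number of CG, the share of genes called higher was 21.9% with 0 to 4, 18.0% with 5 to 9, 10.4% with 10 to 19, 8.34% with 20 to 29 and 9.18% with 30 or more. Among genes with a DMSO mean of at least 1 CPM these shares were 11.8%, 10.6%, 5.88%, 5.56% and 5.80%.

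CG content differed among the kinds of rises. Rises called in no other line had a median of 15 CG, those in 1 other line 18 and those in 2 or more 22. The cytokines and chemokines that rose had a median of 8 CG, NK-cell genes 5.5, myeloid genes 7, interferon-stimulated genes 7, cancer-testis genes 16 and T-lineage transcription factors 27. In that order the medians cover 19, 10, 16, 15, 11 and 14 genes that rose. Members of these lists that were not called were not examined. MPO had no CG in its first 300 bases, GZMA 1 and IL10 2, whereas TIMP3 had 41 and TRH 30. These medians describe base composition and say nothing of methylation in Loucy.

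**Figure D5:**
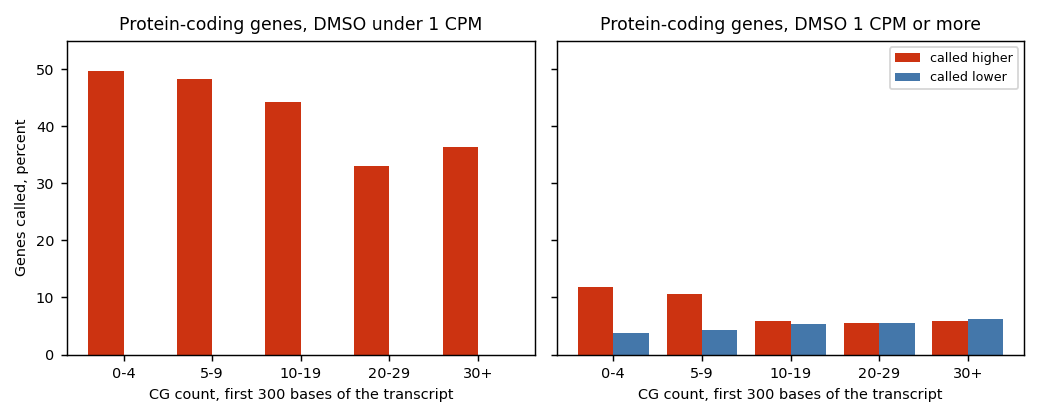
Percent of protein-coding genes called higher (red) or lower (blue) in Loucy by the number of CG dinucleotides in the first 300 bases of the transcript, for genes with a DMSO mean under 1 CPM (left) and of 1 CPM or more (right). With few CG the share higher is largest in both panels, 49.7% and 11.8% in the 0 to 4 bin.

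Of 1666 long non-coding RNAs 197 were higher (11.8%) and 11 lower (0.660%), and of 12371 protein-coding genes 1346 and 593. The difference between the classes was not tested. AC022239.1 rose from 13.6, 11.5 and 11.7 CPM to 77.6, 79.9 and 73.7 CPM (log2 change 2.65 ± 0.26, adjusted p = 2.65e-08). MIR210HG, the host transcript of a hypoxia-induced microRNA, rose from 0.855, 0.526 and 1.23 CPM to 7.70, 5.67 and 8.53 CPM (log2 change 3.06 ± 0.55, adjusted p = 0.000222), more than in the other lines (difference 3.49, adjusted p = 0.0027). Both kept their treatments apart.

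Reads outside annotated genes and on the opposite strand of genes were compared over 3 against 3 libraries, where the smallest possible p is 0.1. Opposite-strand reads per 100 gene reads were 7.71 ± 0.0848 with decitabine and 7.57 ± 0.126 with DMSO (SD, n = 3 each, exact permutation p = 0.3). Reads in no annotated feature made up 22.2% ± 2.37 and 21.7% ± 1.42 of all reads (exact permutation p = 0.8). Of 2985 genes with enough opposite-strand reads, 132 were higher on that strand (4.42%) and 40 lower (1.34%). In 63 of the 132 the opposite strand also held more reads than the gene's own, and in 52 of these an annotated gene overlaps on that strand, as IGF1 and others do for HELLPAR, whose opposite strand went from 326 to 2983 reads.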

How the data were processed

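Total RNA of 30 T-ALL cell-line libraries was sequenced from the 3′ end (QuantSeq 3′ mRNA-Seq FWD), per the labels' protocols. The authors deposited raw counts of reads per Ensembl gene for each library, with columns for both strands. STAR 2.4.2a, GRCh38 and DESeq2 are named in the submitters' processing notes, and for the counting annotation the release was not given in the sources used here. The stranded column was used. Of 60554 gene IDs, 56996 matched symbols of GENCODE 29. Rows that name no gene stayed out of library sizes. The no-feature row alone made up 22.2% of all reads in Loucy decitabine and 21.7% in DMSO libraries.

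Genes passing filterByExpr (minimum count 10) were fitted over all 30 libraries, 1 group per line and treatment, with TMM scaling and edgeR 4.0.16 (glmQLFit, glmQLFTest) in R 4.3.3. Adjusted p-values are Benjamini-Hochberg over all genes tested, with a threshold of 0.05. The fit has 20 residual degrees of freedom and gave a common dispersion of 0.0280. CPM are counts divided by TMM-scaled gene read totals, except in the sums of cell type markers, where totals were not scaled. Standard errors were taken as |log2 change|/√F. Alternatives used DESeq2 1.42.0, limma 3.58.1 (voom), other scalings and filters, the 6 Loucy libraries alone, unstranded counts, and each Loucy library left out. Tested on simulated data for this comparison (14670 genes), the fit recovered 20.9% of genes changed 1.5-fold, 85.1% changed 2-fold and 100% changed 4-fold. Changes were planted only in genes at 1 CPM or more in Loucy DMSO, and all genes were given the same dispersion of 0.028. Recovery below 1 CPM, where 49.8% of the rises lay, was not tested.

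The genes, gene lists and tests were chosen with earlier results of these data known. The genes named first were protein-coding, 20 with the greatest increase and 15 with the greatest decrease, that were called in both fits, changed at least 2-fold, lay apart between treatments and reached 5 CPM in the higher one. To these came up to 6 called members of each list, the 10 largest differences from the other lines each way, called long non-coding RNAs at 5 CPM, and set genes of DNA methylation and drug handling. Outside this rule, chosen after their values were seen, are the cell type markers, the 10 rises called in all lines, LTB, CCL3, CCL4, IL15, CXCR4, IL6R, IL21R, TNFRSF1B, CD33, PIWIL2, SOHLH2, ABCB1, LEF1, MYB, MYCN, RUNX1, TOX, ETS1, TCF7, BCL11B, SET, DKC1, ERVFRD-1, HIST1H3E and HIST1H2BN. The voom fit, the transcript-start window and the counts of the other lines without the mixed libraries were added after seeing the data. Intervals and floors cover counting error only, since reads carried no molecular identifiers. No replicate files of Loucy held the same values within sampling noise. Results for some genes are not reported here.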

Additional observations from a re-analysis of the deposited data

Results flagged for a closer look

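For 19 genes the Loucy response differed from the mean response of the other 4 lines in a test of that difference. They are among the 10 largest each way of protein-coding genes that were called in Loucy, lay apart between treatments there and reached 5 CPM in the higher one. Higher responses in Loucy, as log2 differences, were 7.23 for ANGPT2, 6.97 for KCNK17, 6.78 for COBLL1, 6.63 for CYB561, 5.99 for RAB17, 5.95 for F2RL3, 5.85 for GPER1, 5.79 for GPT2, 5.76 for TIMP3 and 5.57 for EMP1. GPER1 had no DMSO read in Loucy and the other 9 had 2 to 20 over 3 libraries, so these fitted sizes depend on the added count. Without the 3 mixed DMSO libraries of other lines, the differences of CYB561, ANGPT2 and COBLL1 no longer passed (4.15, 6.15 and 4.73, each with an adjusted p above 0.98 by edgeR). SDC4, PRSS35 and TRH, which the test cannot judge, had the same adjusted p in that fit. The missing calls therefore do not show that these differences were lost. Lower responses were -2.28 for HIST1H1E, -2.28 for VPREB1, -2.16 for HIST1H1B, -1.84 for HIST1H1D, -1.55 for GATA3, -1.44 for NRGN, -1.41 for HIST2H2AC, -1.36 for HIST1H2BH and -1.36 for DPF3.

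Reads on the strand opposite to an annotated gene, which enter no comparison of genes, were higher with decitabine than in the DMSO controls at 6 genes with no annotated gene on that strand within 10 kb. Summed over 3 libraries per treatment they were 246 against 87 in DMSO at LINC00861, 189 against 70 at LCAT, 126 against 14 at MDS2, 110 against 39 at RFTN2, 99 against 8 at SULT1C4 and 55 against 15 at AC111170.3.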

How the results depend on the processing

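The number of rises in Loucy, 1595, stayed within 1.5 times under every alternative run. The number of falls, 623, was 1344 with Loucy's own 6 libraries, 1259 without the 3 mixed DMSO libraries of other lines, 274 with library totals only and 1041 with voom, and 287 to 495 with 1 Loucy library left out. Falls of at least 2-fold, 48, were 81 with the 6 libraries alone, 28 with library totals, and 28 to 73 with a library left out. Genes of higher response in Loucy than in other lines, 425, were 750 with DESeq2, 819 with voom and 260 to 365 with a library left out. Genes of lower response, 248, were 727 without the mixed libraries, 141 with library totals, 528 with voom and 85 to 163 with a library left out. The cause was not tested.

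Among the named genes put through the alternatives, the log2 change turned for 3, none of them called. SLC29A2 was 0.73, and -0.030 with unstranded counts. SLC29A1 was -0.01, and 0.024 with RLE scaling, 0.10 with totals and 0.024 with DESeq2, and it ranged from -0.11 to 0.075 with 1 Loucy library left out. TET3 was -0.09, and 0.028 with totals, and it ranged from -0.35 to 0.12 with 1 Loucy library left out. Of 262 called named genes, 188 kept their call with each Loucy library left out.

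With the replicate number as a block, 1670 genes were higher and 760 lower. Deviations of same-numbered libraries of Loucy correlated at 0.056, -0.018 and -0.039. These values show no sign of pairing by number, but so few of them cannot exclude it. Genes with few reads limit the rest: 157 rises had no DMSO read, and their fitted size depends on the added count.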
